A study of Mus musculus with 10 samples.

Results

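Expression of 10 genes that mark fat cells was examined in 10 mouse melanomas, 5 labelled Fes KO and 5 labelled Fes WT. The genes were chosen by symbol: Adipoq, Plin1, Plin4, Fabp4, Cidec, Lep, Pparg, Retn, Cfd and Ucp1. All 10 were found among the 47643 genes of the deposited tables. The Fes KO tumours carried Tyr::CreERT2/+, BRafV600E/+ and Fes-/-, and the Fes WT tumours carried the same Tyr::CreERT2/+ and BRafV600E/+ alleles with Fes+/+. In both groups 4OH-Tamoxifen at 5 mM was put on the skin of the back to start the tumours. The Tyr promoter drives the tamoxifen-activated Cre in pigment cells, so both groups share activated Braf in that lineage. RNA came from whole tumour pieces. No age or sex is given in the labels. Whether each tumour is from its own mouse is also not stated, so every p-value here reflects only how far these tumours differ, which may be partly technical.

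White fat cells store triglyceride in 1 large droplet and signal to other tissues through secreted adipokines. The nuclear receptor Pparg turns on the genes of fat storage during differentiation. Perilipins and Cidec coat and enlarge the droplet, Fabp4 carries fatty acids in the cytoplasm, and adiponectin (Adipoq), leptin (Lep), resistin (Retn) and adipsin (Cfd) are secreted. Brown fat cells burn lipid for heat through the mitochondrial uncoupling protein Ucp1. Mouse back skin has its own fat layer below the dermis, above a thin sheet of muscle. Melanoma cells can grow into this layer. Fabp4 is also made by macrophages and by endothelial cells of small vessels, and Pparg also by macrophages and sebaceous gland cells.

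Levels are given in CPM, counts scaled to the size of the library with the TMM factors of edgeR. Total counts ranged from 13226783 to 16599120 per tumour, so 3 reads corresponded to between 0.183 and 0.227 CPM. Fes itself was at 83.6, 75.0, 71.6, 72.8 and 101 CPM in Fes WT 1 to 5 and at 33.3, 31.5, 28.8, 57.8 and 41.4 CPM in Fes KO 1 to 5. The groups did not overlap, and the log2 fold change was -1.06 (SE 0.19, edgeR adjusted p = 0.0846). Melanocyte markers summed to 514 to 858 CPM in Fes WT and 811 to 1034 CPM in Fes KO, and of the 7 markers 1 was at 0 in Fes WT 1 and 2 in Fes KO 5. Most of this sum was Sox10, and the pigment cell gene Mlana was at 26.8 CPM in Fes KO 2 and at 0 to 2.20 CPM elsewhere. Fes KO 2 stood apart in skin transcripts, with keratinocyte markers summing to 4470 CPM against 5.84 to 194 CPM in the other 9 tumours. Fes WT 3 stood apart in skeletal muscle transcripts, at 14001 CPM, followed by Fes KO 2 at 1726 CPM. The fold changes of members are given with and without these tumours, and those of other named genes where leaving out both moved a value beyond 0.5 by over 1.5 times. In bulk RNA, fewer fat cells and less RNA of a gene per fat cell cannot be told apart.

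Fat cell transcripts were present in these melanomas in very unequal amounts, and the tumours with most of them came from both genotypes. In 9 of the 10 genes the 2 highest tumours were Fes KO 2 and Fes WT 3, one from each group. Over all 14816 tested genes these tumours held the 2 highest places in 7.95%. Ucp1 was the exception, with reads in Fes WT 2 and Fes KO 3 alone. Among the 8 genes with reads in every tumour the spread was widest for Plin1, where the highest tumour was 399-fold above the lowest, and was 251-fold for Adipoq, 284-fold for Cfd, 276-fold for Cidec and 207-fold for Plin4. It was 7.94-fold for Fabp4 and 7.22-fold for Pparg. Some of the lowest values rest on 1 to 4 reads, so these large ratios are imprecise.

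**Figure D1:**
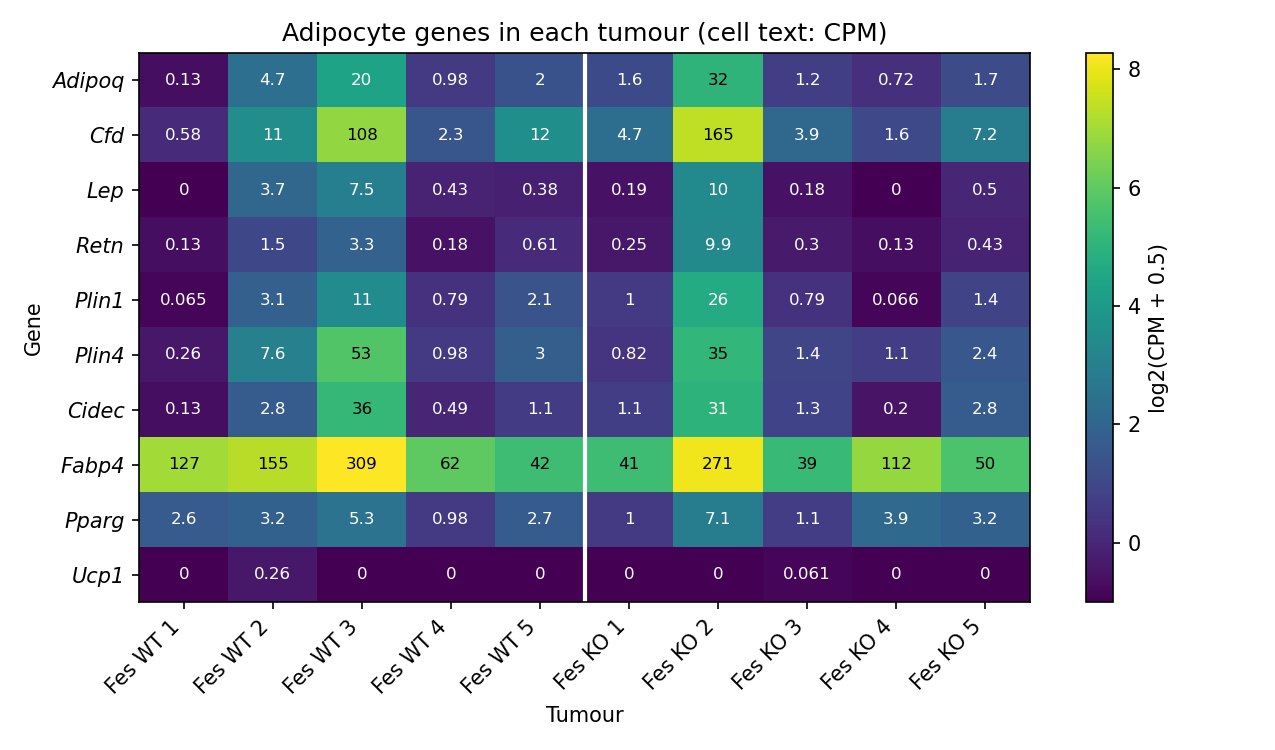
Level of each adipocyte gene (rows) in each tumour (columns, Fes WT left and Fes KO right), with CPM written in the cell and log2(CPM + 0.5) as colour. Fes WT 3 and Fes KO 2 are the bright columns, Fabp4 is high in every tumour, and Ucp1 is at or near 0 throughout.

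None of these genes differed between Fes KO and Fes WT beyond the spread between tumours. Of the 7 members that passed the filter on low counts, 0 changed at an adjusted p below 0.05 in edgeR's quasi-likelihood test, where the share over all tested genes was 0.175% (0.0472% higher and 0.128% lower in Fes KO). At an unadjusted p below 0.05 there were also 0, where the share over all tested genes was 9.62%, so fewer than 1 of 7 would be called at that share. Limma on the deposited log2 values called 0 of 7, and DESeq2 gave an adjusted p for 2 members, Pparg and Fabp4, and called neither. Log2 fold changes (Fes KO minus Fes WT) lay above 0 for 4 members and below 0 for 3. Every member had overlapping groups. Over all tested genes, 1.9% had groups that did not overlap. Lep, Retn and Ucp1 did not pass the filter and were compared by exact permutation.

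The secreted factors are described first, starting with their promoters. The promoters show what letters stand before each gene's start. The windows below hold the 250 bases before the start site, 5′ to 3′ on the coding strand, from RefSeq (GRCm38.p6). Capitals mark matches to the 5 motifs searched on both strands. The motifs were TATAAA (the TATA box), the promoter element CCAAT, the core bound by nuclear receptors (AGGTCA), a direct repeat of this core with 1 base between the copies (the arrangement bound by Pparg with its partner) and TTGCGCAA (the palindrome bound by C/EBP factors). AGGTCA lies within the direct repeat, so any window with the repeat also counts for AGGTCA. The windows are chr6:29059971-29060220 for Lep, chr16:23146286-23146535 for Adipoq and chr10:79890603-79890852 for Cfd, all on the plus strand.
Lep: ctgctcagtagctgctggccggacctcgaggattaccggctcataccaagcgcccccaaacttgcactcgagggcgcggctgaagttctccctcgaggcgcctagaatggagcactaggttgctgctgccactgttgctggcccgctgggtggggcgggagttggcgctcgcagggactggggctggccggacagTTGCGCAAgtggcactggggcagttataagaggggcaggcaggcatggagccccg
Adipoq: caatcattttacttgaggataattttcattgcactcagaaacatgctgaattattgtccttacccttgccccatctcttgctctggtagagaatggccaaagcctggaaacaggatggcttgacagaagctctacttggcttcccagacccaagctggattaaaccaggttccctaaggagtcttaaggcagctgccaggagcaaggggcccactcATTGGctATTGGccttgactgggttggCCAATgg
Cfd: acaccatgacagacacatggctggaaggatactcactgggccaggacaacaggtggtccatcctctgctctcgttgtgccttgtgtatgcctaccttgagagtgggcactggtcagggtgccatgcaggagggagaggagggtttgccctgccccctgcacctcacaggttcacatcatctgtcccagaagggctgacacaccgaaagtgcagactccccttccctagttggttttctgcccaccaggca
Of the 10 members, 9 had a window in the RefSeq table, with 12 start sites in all. Lep held TTGCGCAA starting at position -55 from the start site, a motif found in 0.164% of the 32851 promoter windows of the same length. Adipoq held CCAAT at -7 and its reverse complement at -34 and -27, and 33.8% of windows held this motif on either strand. The Cfd window held none of the 5 motifs, and neither did those of Retn, Plin1 and Cidec. Among members, AGGTCA was in windows of Pparg and Ucp1 alone. Pparg and Plin4 also held CCAAT on 1 strand or the other, and Pparg held TATAAA. The direct repeat was in no member's window and in 0.0335% of all windows. These matches are descriptions of letters, and no binding was measured here.

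Adipoq (ENSMUSG00000022878, chromosome 16, 23146536 to 23158028, GRCm38) encodes adiponectin, a hormone secreted almost solely by fat cells. It was at 0.129, 4.68, 20.3, 0.978 and 2.05 CPM in Fes WT 1 to 5 and at 1.64, 32.3, 1.16, 0.723 and 1.71 CPM in Fes KO 1 to 5. Fes KO 2 was 18.9-fold above the next Fes KO tumour and Fes WT 3 was 4.34-fold above the next Fes WT tumour. The groups overlapped, and the mean ± SD of 5 tumours was 7.51 ± 13.9 CPM for Fes KO and 5.63 ± 8.38 CPM for Fes WT. For Adipoq the log2 fold change was 0.43 (SE 1.31, 95% interval -2.49 to 3.35, edgeR adjusted p = 0.937). Without Fes KO 2 and Fes WT 3 it was -0.58 (SE 0.79, edgeR adjusted p = 0.824), so the sign depended on these tumours.

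Cfd (ENSMUSG00000061780, chromosome 10, 79890853 to 79892655) encodes adipsin, the complement factor D protease that fat cells release. Its levels were 0.581, 11.4, 108, 2.26 and 11.7 CPM in Fes WT 1 to 5 and 4.66, 165, 3.9, 1.58 and 7.19 CPM in Fes KO 1 to 5. The order of tumours was the same as for Adipoq apart from Fes WT 2 and Fes WT 5, which changed places. For Cfd the log2 fold change was 0.45 (SE 1.49, 95% interval -2.87 to 3.77, edgeR adjusted p = 0.943), and -0.58 (SE 0.84, edgeR adjusted p = 0.835) without Fes KO 2 and Fes WT 3. On the scale of CPM per kb of merged exons, Cfd had the highest level of the 10 genes in Fes KO 2, at 179, and in Fes WT 3, at 117.

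Lep (ENSMUSG00000059201, chromosome 6, 29060220 to 29073877) encodes leptin, the hormone that reports fat stores to the brain. It was at 0, 3.65, 7.52, 0.428 and 0.379 CPM in Fes WT 1 to 5 and at 0.189, 10.4, 0.183, 0 and 0.499 CPM in Fes KO 1 to 5. Reads were concentrated in Fes KO 2 with 169, Fes WT 3 with 116 and Fes WT 2 with 57. Each other tumour had at most 7. The difference in mean log2(CPM + 0.5), Fes KO minus Fes WT, was -0.48 (exact permutation of the group labels, 2-sided p = 0.778, adjusted p = 1 over the 3 members so tested). The smallest p this design allows is 0.00794. Without Fes WT 3 the difference was 0.080, and without Fes KO 2 it was -1.28.

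Retn (ENSMUSG00000012705, chromosome 8, 3655770 to 3660110) encodes resistin, which in mice is made by fat cells. Its levels were 0.129, 1.54, 3.31, 0.183 and 0.606 CPM in Fes WT 1 to 5 and 0.252, 9.88, 0.305, 0.131 and 0.427 CPM in Fes KO 1 to 5. Fes KO 2 held 161 reads and the other Fes KO tumours 2 to 6. The difference in mean log2(CPM + 0.5) was -0.0011 (exact permutation, 2-sided p = 1). It was 0.39 without Fes WT 3 and -0.75 without Fes KO 2.

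The droplet proteins came next. Plin1 (ENSMUSG00000030546, chromosome 7, 79720218 to 79732903) encodes perilipin 1, which gates access of lipases to the droplet. It was at 0.0645, 3.08, 10.6, 0.794 and 2.12 CPM in Fes WT 1 to 5 and at 1.01, 25.8, 0.793, 0.0657 and 1.35 CPM in Fes KO 1 to 5. In Fes WT 1 and Fes KO 4 the level was that of 1 read. For Plin1 the log2 fold change was 0.82 (SE 1.37, 95% interval -2.23 to 3.86, edgeR adjusted p = 0.881), and -0.90 (SE 0.94, edgeR adjusted p = 0.759) without Fes KO 2 and Fes WT 3.

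Plin4 (ENSMUSG00000002831, chromosome 17, 56100591 to 56109803) encodes perilipin 4, which coats small nascent droplets in white fat and is also made in skeletal muscle. It was at 0.258, 7.63, 53.4, 0.978 and 3.03 CPM in Fes WT 1 to 5 and at 0.818, 35.2, 1.4, 1.12 and 2.35 CPM in Fes KO 1 to 5. Unlike Adipoq, Cfd and Plin1, it was highest in Fes WT 3. For Plin4 the log2 fold change was -0.67 (SE 1.43, 95% interval -3.83 to 2.50, edgeR adjusted p = 0.912), and -1.06 (SE 0.85, edgeR adjusted p = 0.677) without Fes KO 2 and Fes WT 3. Fes WT 3 was also the tumour with the highest sum of skeletal muscle markers, and the part of muscle RNA in its Plin4 level was not tested.

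Cidec (ENSMUSG00000030278, chromosome 6, 113424634 to 113435760) encodes a protein that fuses small droplets into a large one. Its levels were 0.129, 2.76, 35.7, 0.489 and 1.06 CPM in Fes WT 1 to 5 and 1.13, 31.0, 1.34, 0.197 and 2.78 CPM in Fes KO 1 to 5. Fes WT 3 and Fes KO 2 lay close together, 12.9-fold and 11.2-fold above the next tumour of their groups. For Cidec the log2 fold change was -0.13 (SE 1.51, 95% interval -3.49 to 3.24, edgeR adjusted p = 0.988), and 0.30 (SE 0.89, edgeR adjusted p = 0.930) without both tumours.

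**Figure D2:**
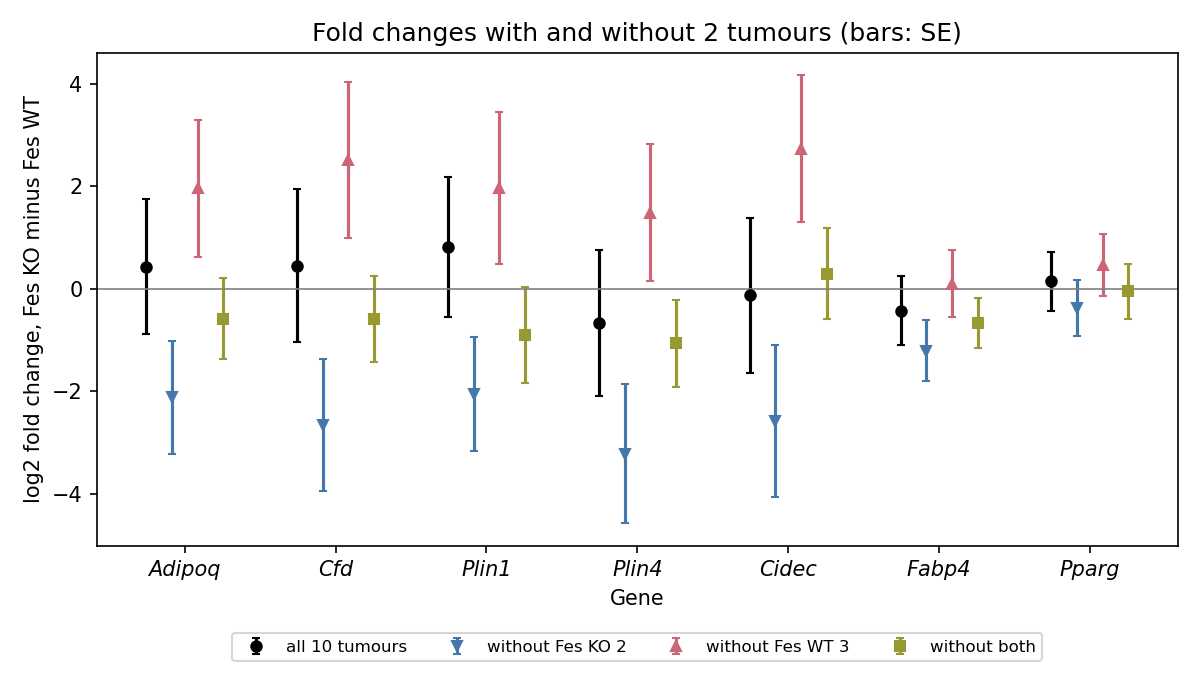
Log2 fold change (Fes KO minus Fes WT, vertical axis) of the 7 tested adipocyte genes in edgeR, with bars of 1 SE, for all 10 tumours and without Fes KO 2, without Fes WT 3 and without both. All 7 values lie below 0 without Fes KO 2 and above 0 without Fes WT 3.

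The direction of these values turned with 1 tumour of each group. Without Fes KO 2 all 7 log2 fold changes were negative, between -3.22 for Plin4 and -0.37 for Pparg, and those of Adipoq, Cfd, Plin1 and Pparg had turned. Without Fes WT 3 all 7 were positive, between 0.10 for Fabp4 and 2.74 for Cidec, and those of Plin4, Cidec and Fabp4 had turned. The lowest edgeR adjusted p was 0.387 in the former (Plin4) and 0.520 in the latter (Cidec), so no call arose. The 95% intervals with all tumours reach beyond 2 log2 units on either side for Adipoq, Plin1, Plin4, Cidec and Cfd, and differences of that size in either direction would not have been detectable.

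Fabp4 was highest in Fes WT 3, Fes KO 2 and Fes WT 2, the same tumours as Adipoq, but did not follow it in the lower tumours. Fabp4 (ENSMUSG00000062515, chromosome 3, 10204088 to 10208576) was at 127, 155, 309, 61.7 and 41.7 CPM in Fes WT 1 to 5 and at 41.5, 271, 39.0, 112 and 50.1 CPM in Fes KO 1 to 5. Fes WT 1, the lowest tumour for Adipoq, was the fourth highest for Fabp4, and Fes KO 4, the second lowest for Adipoq, was the fifth highest. Fes WT 1 had 1970 Fabp4 reads beside 2 Adipoq reads, a ratio of 985, and Fes KO 4 had 1708 beside 11, a ratio of 155. In the other 8 tumours the ratio lay between 8.37 in Fes KO 2 and 63.1 in Fes WT 4. For Fabp4 the log2 fold change was -0.43 (SE 0.67, 95% interval -1.92 to 1.06, edgeR adjusted p = 0.872), and -0.66 (SE 0.48, edgeR adjusted p = 0.636) without Fes KO 2 and Fes WT 3.

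Pparg (ENSMUSG00000000440, chromosome 6, 115360951 to 115490399) was low in every tumour, with 16 to 115 reads. It was at 2.65, 3.20, 5.25, 0.978 and 2.73 CPM in Fes WT 1 to 5 and at 1.01, 7.06, 1.10, 3.94 and 3.20 CPM in Fes KO 1 to 5. Fes KO 4 was the third highest here, against the ninth for Adipoq. For Pparg the log2 fold change was 0.15 (SE 0.58, 95% interval -1.14 to 1.43, edgeR adjusted p = 0.952), and -0.05 (SE 0.54, edgeR adjusted p = 0.985) without both tumours.

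The markers of macrophages and endothelial cells were read in the same tumours, because these cells also make Fabp4. All 8 macrophage markers had reads in every tumour. Their sum ranged from 789 to 1893 CPM in Fes KO tumours and from 1266 to 3038 CPM in Fes WT. Fes WT 1 had the highest sum of all tumours, at 3038 CPM, and Fes KO 4 the highest of the Fes KO tumours, at 1893 CPM. Fes WT 5 had the second highest sum of all tumours, at 2247 CPM, but only 41.7 CPM of Fabp4. All 8 endothelial markers also had reads in every tumour, with sums of 260 to 591 CPM in Fes KO tumours and 265 to 412 CPM in Fes WT. Fes KO 4 was the highest at 591 CPM, and Fes WT 1 had 329 CPM. The second highest was Fes KO 5, at 487 CPM, with 50.1 CPM of Fabp4. The part of these cells in the Fabp4 and Pparg levels was not tested.

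**Figure D3:**
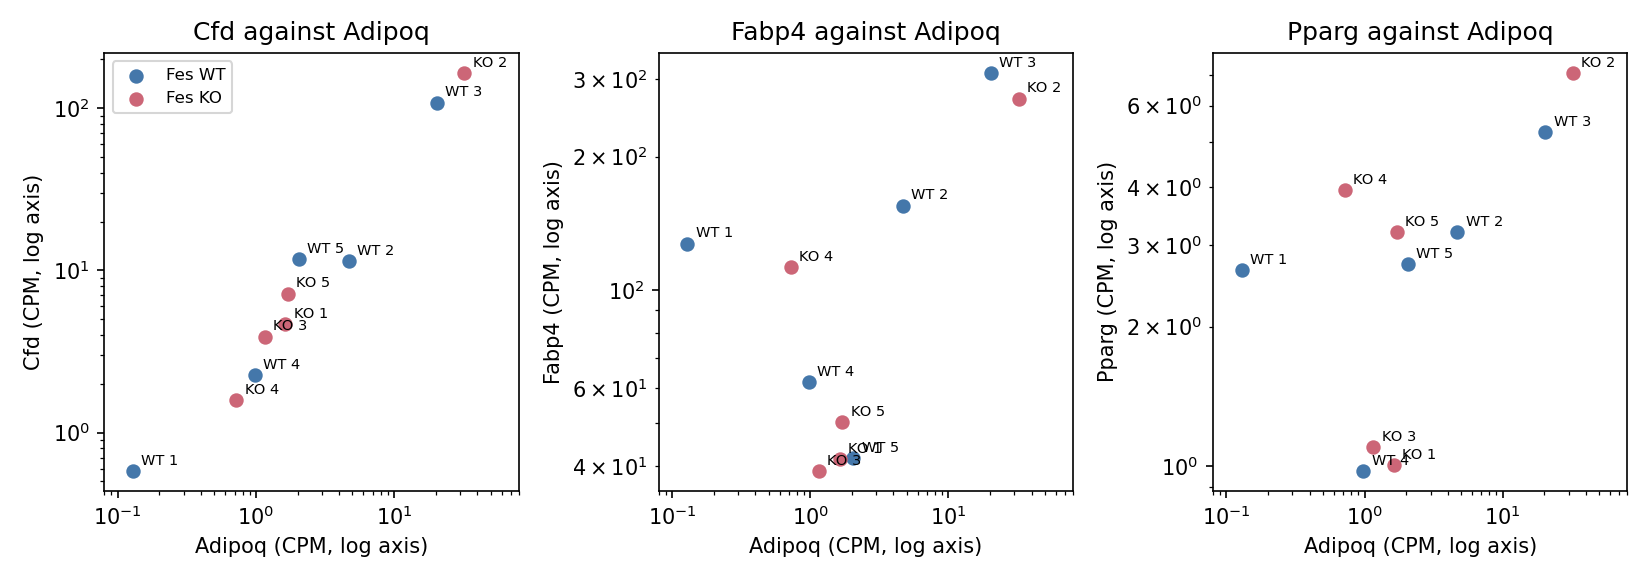
Cfd, Fabp4 and Pparg (vertical axes) against Adipoq (horizontal axes), in CPM on log axes, with 1 point per tumour, blue for Fes WT and red for Fes KO. Cfd rises with Adipoq in a narrow band, while WT 1 and KO 4 lie far above the other low-Adipoq tumours for Fabp4.

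Ucp1, the marker of brown and beige fat cells (ENSMUSG00000031710, chromosome 8, 83290352 to 83298452), was at 0 reads in 8 of 10 tumours. Reads were found in Fes WT 2, with 4 (0.256 CPM), and in Fes KO 3, with 1 (0.061 CPM). A count of 0 allows up to 0.183 to 0.227 CPM in these 8 libraries. With 1 read in Fes KO and 4 in Fes WT the ratio was 0.244, with an exact 95% counting interval of 0.00496 to 2.47. This interval pools the reads of each group and holds no spread between tumours, so it does not compare the genotypes. Exact permutation gave a 2-sided p of 1. Fes KO 2 and Fes WT 3, the tumours with the most Adipoq, both had 0 Ucp1 reads.

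The members differed in level among themselves. On the scale of CPM per kb of merged exons, the median over 10 tumours was 19.4 for Fabp4, 6.43 for Cfd, 1.21 for Adipoq, 1.00 for Pparg, 0.666 for Cidec, 0.325 for Plin4, 0.254 for Plin1, 0.232 for Retn, 0.120 for Lep and 0 for Ucp1. The ranges over tumours overlapped between all neighbours in this order. The merged exon length counts every annotated exon, 4489 bases for Fabp4 against 922 for Cfd. A gene read mainly from a short transcript is thereby placed too low.

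The make-up of the fat signal also differed between tumours. Fabp4 took 97.0% of all reads of the 10 genes in Fes WT 1 (exact 95% binomial interval 96.2 to 97.7%) and 93.5% in Fes KO 4 (92.3 to 94.6%). It took 46.1% in Fes KO 2 (45.1 to 47.1%) and 55.9% in Fes WT 3 (54.8 to 56.9%). Without Fabp4 and Pparg, the other 8 genes had 5044 reads in Fes KO 2, 3683 in Fes WT 3, 546 in Fes WT 2 and 20 to 277 in each other tumour. Intervals cover counting error only.

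Within these 8 genes the 2 richest tumours did not have the same profile. Plin4 was 22.4% of the 8 genes' reads in Fes WT 3 (21.0 to 23.8%) and 11.4% in Fes KO 2 (10.5 to 12.3%). Cidec was 14.9% in Fes WT 3 (13.8 to 16.1%) and 10% in Fes KO 2 (9.22 to 10.9%). Plin1 went the other way, with 4.43% in Fes WT 3 (3.78 to 5.14%) and 8.33% in Fes KO 2 (7.58 to 9.12%), and so did Retn, with 1.38% (1.03 to 1.82%) and 3.19% (2.72 to 3.71%). The intervals of Lep overlapped, at 3.15% (2.61 to 3.77%) in Fes WT 3 and 3.35% (2.87 to 3.88%) in Fes KO 2. Fes WT 2 had the largest Lep share, 10.4% (8.0 to 13.3%), and the lowest Cfd share, 32.6% (28.7 to 36.7%). Some tumours with few reads had intervals that overlapped those of Fes WT 2. In Fes WT 4, for example, Lep was 7.0% (2.86 to 13.9%) and Cfd 37.0% (27.6 to 47.2%). These are single tumours, so the differences hold for these libraries and not for the genotypes.

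**Figure D4:**
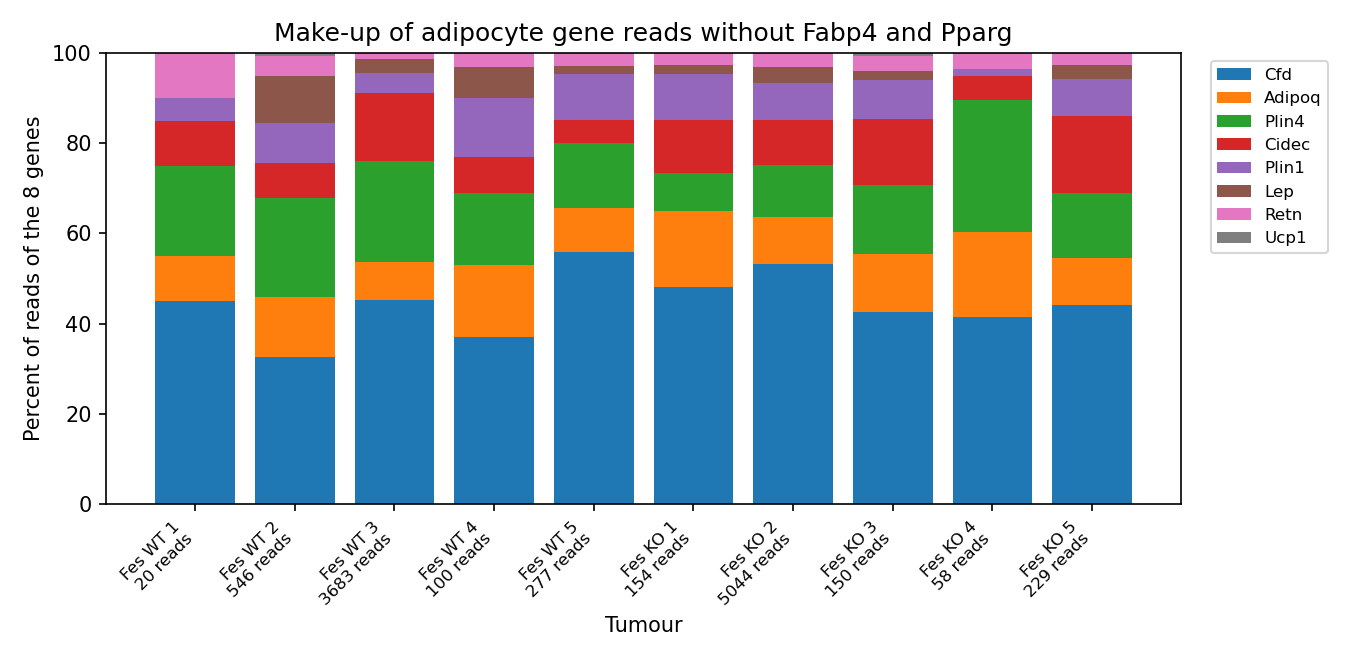
Share of each gene (stacked bars, percent) in the summed reads of the 8 adipocyte genes other than Fabp4 and Pparg, with the number of reads under each tumour. Cfd is the largest part in every tumour, Plin4 is wider in Fes WT 3 (22.4%) than in Fes KO 2 (11.4%), and Lep is widest in Fes WT 2.

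Muscle markers were highest in the same 2 tumours as most fat genes, while keratinocyte and sebaceous gland markers were highest in Fes KO 2 and next highest in Fes WT 5. Skeletal muscle markers summed to 14001 CPM in Fes WT 3 and 1726 CPM in Fes KO 2, against 2.42 to 334 CPM in the other 8 tumours. Keratinocyte markers reached 4470 CPM in Fes KO 2, while Fes WT 3 had 89.1 CPM. Fes WT 5 had 194 CPM of keratinocyte markers with 2.05 CPM of Adipoq. Sebaceous gland markers were at 305 CPM in Fes KO 2, 18.6 CPM in Fes WT 5 and 0.516 to 2.85 CPM in the others. All 7 sebaceous markers had reads in Fes KO 2, while 2 of them had none in Fes WT 5. Most of the Fes WT 5 sum was 1 keratin gene, Krt79. Over the Fes WT tumours Krt79 averaged 3.66 CPM, against 0.267 CPM for Fa2h and 0.262 CPM for Awat2. Fes WT 2, the third highest for Adipoq, had 7.69 CPM of muscle and 8.65 CPM of keratinocyte markers, values within the range of the 7 tumours with less Adipoq. How much of the fat signal came with normal skin in the tissue piece was not tested.

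**Figure D5:**
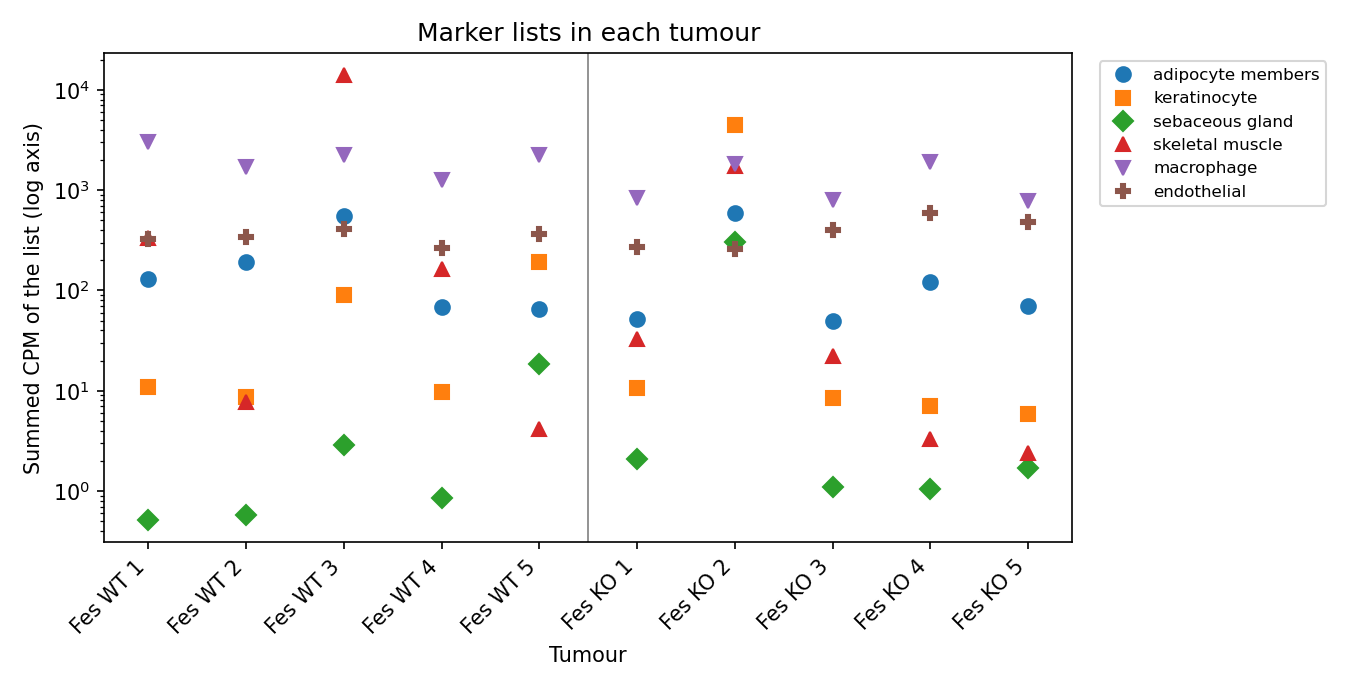
Summed CPM (vertical log axis) of the adipocyte genes and of 5 marker lists in each tumour. Adipocyte genes are highest in Fes KO 2 and Fes WT 3, where skeletal muscle markers are also highest, and keratinocyte and sebaceous gland markers peak in Fes KO 2.

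The other genes of fat storage were read next, from 8 lists with 76 genes that are not members. Of these, 64 passed the filter and 0 changed in edgeR, with 24 log2 fold changes above 0, 40 below and a median of -0.09. Group levels of these genes are means ± SD of 5 tumours, and single values are log2 fold changes, Fes KO minus Fes WT. Over all tested genes the median was 0.01 and 52.4% lay above 0. At an unadjusted p below 0.05 there were 11 of the 64 (17.2%), against 9.62% of all tested genes. Limma on the deposited values also called 0, and DESeq2 called 2, Rarres2 (-0.60, adjusted p = 0.0267) and Cd34 (1.04, adjusted p = 0.0418), of the 59 with an adjusted p. Over all genes DESeq2 called 1.86%. In 16 of the 64 (25.0%) the 2 highest tumours were Fes KO 2 and Fes WT 3, against 7.95% of all tested genes.

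Of the lipid droplet proteins, 6 of 10 were tested, 0 changed, and the median log2 fold change was -0.09. Plin2, a perilipin that many cell types make, had -0.44 (SE 0.20) and was at 63.6 ± 12.2 CPM in Fes KO tumours and 86.4 ± 24.1 CPM in Fes WT. Plin3 had -0.09 and G0s2, an inhibitor of the lipase Pnpla2, had -0.77 (SE 0.41). Plin2 and Plin3 were far more even between tumours than Plin1 and Plin4, at 49.5 to 120 CPM and 70.3 to 93.6 CPM over all 10. Of the lipolysis genes, 7 of 8 were tested and 0 changed, with a median of 0.13. The lipase genes Pnpla2 and Mgll had -0.31 (SE 0.22) and 0.18 (SE 0.16), the glycerol channel gene Aqp7 had -1.20 (SE 0.78), and the phosphodiesterase gene Pde3b had -0.48 (SE 0.21).

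Of the triglyceride and fatty acid synthesis genes, 12 of 14 were tested and 0 changed, with a median of 0.13. Scd1, a fatty acid desaturase, was at 622 ± 193 CPM in Fes KO tumours and 508 ± 188 CPM in Fes WT, and Fasn, the fatty acid synthase, at 230 ± 35.1 and 225 ± 27.9 CPM. Lpin1, a phosphatidate phosphatase, had -0.58 (SE 0.18, edgeR adjusted p = 0.321), and the elongase gene Elovl6 had 1.58 (SE 0.57, edgeR adjusted p = 0.422). Without Fes KO 2 and Fes WT 3 the Elovl6 value was 0.67. Of the uptake genes, 7 of 7 were tested and 0 changed, with a median of -0.06. Lpl, the lipase that frees fatty acids at the vessel wall and is also made by macrophages, was at 112 ± 140 CPM in Fes KO tumours and 445 ± 303 CPM in Fes WT, with -1.98 (SE 0.79, edgeR adjusted p = 0.471), and with -2.99 without the same 2 tumours. The fatty acid transporter gene Slc27a1 had 0.55 (SE 0.27). The macrophage sums of 3 Fes KO tumours lay below those of every Fes WT tumour, and their part in the Lpl value was not tested.

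Other adipokines and adipokine receptors lay mostly below 0, in 10 of 11 tested genes with a median of -0.29, and 0 changed. Rarres2, the chemerin gene, was at 39.5 ± 5.15 CPM in Fes KO tumours and 60.2 ± 13.0 CPM in Fes WT, with -0.60 (SE 0.16, edgeR adjusted p = 0.237). Nampt, an enzyme of NAD synthesis, had -0.39 (SE 0.13, edgeR adjusted p = 0.373). The adiponectin receptor genes Adipor1 and Adipor2 were at 254 ± 49.7 and 114 ± 6.82 CPM in Fes KO tumours and at 275 ± 26.8 and 139 ± 22.5 CPM in Fes WT. The receptors thus had reads in every tumour, including those with nearly no Adipoq. Of the 11, 4 had an unadjusted p below 0.05, against 9.62% of all tested genes.

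Adipogenic transcription factors were all tested, 11 of 11, and 0 changed, with a median of -0.10. Cebpb and Cebpd, which act early in fat cell differentiation and also in inflammation, had -1.25 (SE 0.44, edgeR adjusted p = 0.411) and -1.20 (SE 0.45, edgeR adjusted p = 0.435). Rxra, the partner of Pparg, had a value of -0.0018 (SE 0.14), and Srebf1 had -0.23 (SE 0.23). Of the brown and beige fat genes, 4 of 9 were tested and 0 changed, with a median of -0.63. Prdm16 was at 25.9 ± 8.33 CPM in Fes KO tumours and 26.0 ± 3.73 CPM in Fes WT, the deiodinase gene Dio2 had -1.39 (SE 0.87) and Cox7a1 had -1.26 (SE 0.80). Without Fes KO 2 and Fes WT 3 the values were -2.77 for Dio2 and -0.41 for Cox7a1.

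Genes of adipocyte progenitors, which dermal fibroblasts share, were tested in 6 of 6, and 0 changed, with a median of -0.55. Cd34, a surface protein also found on endothelial cells, was at 355 ± 144 CPM in Fes KO tumours and 173 ± 52.6 CPM in Fes WT, with 1.05 (SE 0.30, edgeR adjusted p = 0.313). Pdgfra had -0.49 (SE 0.31) and Ly6a had -1.33 (SE 0.75).

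The genes whose rank order over tumours was most like that of the fat cell markers were looked up among all tested genes. Likeness was Spearman's rho over 10 tumours with the mean log2(CPM + 0.5) of Adipoq, Plin1 and Cidec, given as a description. Outside the members, the 8 highest were Slc7a6 and Atp6v1d at 0.964, Glb1l2, Entpd6, Hras and Dnajb2 at 0.952, and Llph and Kti12 at 0.939. Each was highest in Fes KO 2 and next highest in Fes WT 3, the order of the marker mean by which they were picked. Apart from Glb1l2, with a 52.3-fold range from 0.258 to 13.5 CPM, they varied little, from 1.53-fold for Atp6v1d to 3.34-fold for Hras. Hras is a small GTPase of growth factor signalling, Slc7a6 an amino acid transporter and Atp6v1d a subunit of the proton pump of lysosomes. Among the members, rho was 0.964 for Cfd and 0.891 for Plin4, which were not part of the mean, and 0.624 for Pparg and 0.430 for Fabp4. Without Fes KO 2 and Fes WT 3, over 8 tumours, it was 0.929 for Cfd, 0.810 for Plin4, 0.262 for Pparg and -0.10 for Fabp4. Over the same 8 tumours it was 0.881 to 0.929 for the 8 genes outside the members. Those genes were picked by rho over 10 tumours and share the order of the 2 highest tumours with the marker mean. Their values over 8 tumours follow from this pick and are no separate comparison. The order of Cfd and Plin4 thus stayed close to that of the 3 markers among the poorer tumours, and that of Fabp4 and Pparg did not. Outside the members, 23 of the 14816 tested genes (0.155%) had a rho of at least 0.9 over 10 tumours. Such closeness was thus rare, but not limited to the members.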

How the data were processed

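RNA of 10 tumours was sequenced. Sample titles gave the group and number of each. One further part of the genotype, the same in both groups, is not reported here. The authors deposited raw read counts per gene and log2 values of the same genes. From the values, each deposited log2 value is the log2 of the count divided by 1 size factor per tumour, plus 1, to within 5.5e-11. Per the submitters' processing notes, the tools were FastQC, STAR 2.51b and Subread 1.4.6 and the builds mm10 and GRCm38. The strand setting of the counting is not stated here, so reads of overlapping antisense genes cannot be told apart. Gene positions and exon lengths are from GENCODE M21 (GRCm38).

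Counts were tested with edgeR 4.0.16 in R 4.3.3 (TMM, filterByExpr, quasi-likelihood, 2-sided, Benjamini-Hochberg over 14816 genes, threshold 0.05). Members that did not pass the filter were compared by exact permutation of log2(CPM + 0.5). Scripts were tested on simulated data. Alternatives were other size factors, DESeq2 1.42.0, limma 3.58.1 on deposited log2 values, other filters and pseudocounts, the replicate number as a block, and leaving out tumours. No 2 tumours of a group agreed within sampling noise (chi-square per degree of freedom 21.2 to 168 over 20 pairs).

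Members and lists were chosen with earlier results of these data known. From each list the text takes up to 2 tested genes by p and 2 by mean CPM, and the 8 genes most like the marker mean. Other named genes are marked as such or serve a stated comparison.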

Additional observations from a re-analysis of the deposited data

Results flagged for a closer look

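Within each group of 5 tumours, single values lay far from the others in 14 of the 20 sets examined (10 genes in 2 groups). The gap to the nearest tumour took more than 0.71 of the group's range in each. No chance rate is given for this count, because CPM values are skewed and the genes are not independent of each other. In Fes KO 2 these were Adipoq at 32.3 CPM, Plin1 at 25.8 CPM, Plin4 at 35.2 CPM, Cidec at 31.0 CPM, Lep at 10.4 CPM, Retn at 9.88 CPM and Cfd at 165 CPM. In Fes WT 3 they were Adipoq at 20.3 CPM, Plin1 at 10.6 CPM, Plin4 at 53.4 CPM, Cidec at 35.7 CPM and Cfd at 108 CPM. Ucp1 stood out in Fes WT 2 at 0.256 CPM (4 reads) and in Fes KO 3 at 0.061 CPM (1 read). The other tumours of each group had 0 reads, so any read would have been marked. Fabp4 and Pparg were not among these genes in either group.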

How the results depend on the processing

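No member was called in any of the 18 alternative fits, or in the permutation alternatives, and the lowest adjusted p was 0.387. Of 165 alternative values of members, 128 kept their direction and 37 turned it. Without the 3 Xist-expressing tumours (Fes WT 5, Fes KO 1 and Fes KO 2) the log2 fold changes were -2.44 for Adipoq, -2.29 for Plin1, -0.13 for Pparg and -2.86 for Cfd. Without Fes KO 2 and Fes WT 3 together they were -0.58 for Adipoq, -0.90 for Plin1, 0.30 for Cidec, -0.048 for Pparg and -0.58 for Cfd. Limma on the deposited log2 values gave -0.17 for Plin1, 0.34 for Cidec and -0.043 for Pparg. With a replicate block, the values were -0.19 for Plin1, 0.75 for Cidec and -0.0080 for Pparg. Retn had 0.058 with a pseudocount of 1 and 0.93 in edgeR with no filter. Leaving out 1 tumour gave -2.12 to 1.96 for Adipoq, -2.06 to 1.96 for Plin1, -3.22 to 1.48 for Plin4, -1.20 to 0.10 for Fabp4, -2.58 to 2.74 for Cidec, -0.37 to 0.46 for Pparg, -2.65 to 2.52 for Cfd, -1.28 to 0.080 for Lep, -0.75 to 0.39 for Retn and -0.12 to 0.033 for Ucp1. Over all genes, edgeR called 26, DESeq2 270, the replicate block 4, the fit without the Xist-expressing tumours 64, and fits without 1 tumour 10 to 54 (15 without Fes WT 1, 11 without Fes WT 2, 16 without Fes WT 4, 54 without Fes WT 5, 10 without Fes KO 1 or Fes KO 3, and 12 without Fes KO 5). DESeq2 called 2 other pathway genes where edgeR called 0, and the adjusted p of Fes was 1.1e-04 with DESeq2. The cause was not tested. The sample titles do not say whether same-numbered tumours are paired. Their deviations from the group means correlated at -0.38 to 0.17 over genes, which cannot exclude a pairing. Below about 3 reads, levels are limited by depth. This holds for Ucp1 in all tumours but Fes WT 2 and for Adipoq and Cidec in Fes WT 1. It also holds for Plin1, Lep and Retn in Fes WT 1 and Fes KO 4.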
